A study of Mus musculus with 5 samples.

Results

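The genes described here encode the machinery that shortens the poly(A) tail of an mRNA, removes its cap and degrades what is left. They were taken by symbol from a fixed list of 45 genes covering the CCR4-NOT and PAN deadenylases, their recruiters including the TTP family, the decapping enzyme and its helpers, the LSM ring, the 5′ to 3′ exonucleases and the RNA exosome. All 45 of the 45 symbols were found among the 21983 genes of the deposited count table. The table comes from RNA sequencing of primary microglia, the resident macrophages of the central nervous system, taken from mouse brain. The 2 libraries labelled KO1 and KO2 (knockout) have the genotype Cx3cr1CreERT2 Ythdf2fl/fl, in which a tamoxifen-activated Cre recombinase made from Cx3cr1, a gene of microglia and other myeloid cells, is combined with floxed Ythdf2 alleles. The 3 control libraries have the genotype Ythdf2fl/fl, floxed alleles without Cre, so the presence of Cre and the loss of Ythdf2 cannot be told apart. Age, sex, tamoxifen dosing and the number of animals behind a library are not given in the labels used here, and each p-value therefore measures the spread among the libraries alone, which may be technical.

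Ythdf2 is a cytoplasmic reader of N6-methyladenosine, and this machinery is what it works through: the reader binds a methylated mRNA and contacts the scaffold subunit of CCR4-NOT, which brings deadenylation. After deadenylation an mRNA is either decapped by Dcp2, with the LSM ring and Patl1 on its shortened tail, and eaten from its 5′ end by Xrn1, or it is degraded from its 3′ end by the exosome. In macrophages the TTP family (Zfp36, Zfp36l1 and Zfp36l2) binds AU-rich stretches in cytokine and early-response mRNAs and recruits the same deadenylase.

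Counts per library summed to 13947500 to 19577217, and 13991 to 14673 genes had at least 1 count. The library labelled KO1 stood apart, with a correlation of log2 levels over all genes tested of 0.859 to 0.930 with the other libraries, against 0.925 to 0.982 among those. Ythdf2 itself was not lower in the libraries labelled KO (103.5 and 127 read counts scaled to library size, CPM, against 57.0, 69.2 and 68.8 CPM in controls 1 to 3). The labels do not say which exons are floxed, and a gene-level count can include exons outside a deletion, so every direction below follows the labels alone and would turn if the labels were exchanged. Of 8 microglial markers, 7 were counted (Csf1r the most abundant; P2ry12 and Tmem119 between 5.35 and 34.1 CPM), with a sum of 3801 and 6392 CPM in the libraries labelled KO against 7072 to 7453 CPM in the controls, while Trem2 was listed at 0 in all 5 libraries. The 7 did not move as one: 5 had a negative and 2 a positive log2 fold change, P2ry12 and Tmem119 being the 2 higher in the libraries labelled KO. Choroid plexus markers (6 genes) summed to 157 and 220.4 CPM versus 7.48 to 26.5 CPM. Monocyte markers (5 genes) summed to 54.5 and 23.4 CPM versus 3.52 to 6.84 CPM, with Ly6c2 at 0 in 4 of 5 libraries and Plac8 also at 0 in 4 of 5. Cycling-cell markers (5 genes) summed to 1205 and 251 CPM versus 85.5 to 283 CPM. Oligodendrocyte markers (4 genes) were abundant and differed within both groups, at 10992 and 4175 CPM versus 9746, 8579 and 1036 CPM. Of 3 endothelial markers, Cldn5 was at 0, Vwf was at 55.6 and 81.8 CPM versus 8.25 to 18.6 CPM, and Pecam1 lay the other way at 0.0595 and 0.108 CPM versus 0.297 to 1.01 CPM. Fibroblast markers (3 genes) summed to 10.9 and 4.49 CPM versus 24.98 to 91.8 CPM, astrocyte markers (3 genes) to 3.63 and 2.16 CPM versus 5.58 to 25.6 CPM, and neuronal markers (3 genes) to at most 1.49 CPM. In bulk RNA, fewer cells of a type and less RNA per cell cannot be told apart, and the part of these cell types in the results below was not tested.

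Most genes of the decay machinery had small log2 fold changes between the groups. Zfp36, the gene for tristetraprolin (TTP), had the largest and was lower in both libraries labelled KO. All 45 genes passed the filter on low counts, and none was called: 0 of 45 had an adjusted p under 0.05 in the edgeR quasi-likelihood test, where 0% of all 12543 genes tested were called. DESeq2 also called 0 of the 45, where it called 1.68% of the 13811 genes it adjusted, and limma-voom called 0. At an unadjusted p under 0.05 edgeR found 1 of 45 (2.22%), against 6.68% of all genes tested. The log2 fold change (labelled KO minus control) was within 0.5 of zero for 39 of the 45 genes, where this held for 8861 of the 12543 genes tested. Its median over the members was -0.19, against 0.01 over all genes tested. The log2 fold change was negative for 32 members and positive for 13, where 48.9% of all genes tested were negative.

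The precision behind these near-zero differences varied between genes. The 95% interval of the fold change stayed within a 2-fold change either way for 25 of the 45 members and within 1.5-fold for 4 (Cnot10, Upf1, Edc4 and Xrn1). For the other 20 it reached past a 2-fold change in at least 1 direction, so these data do not show that they were equal. Every control was below both KO1 and KO2 for 2 members (Cnot4 and Tob1, 4.44%), where this held for 9.85% of all genes tested. Every control was above both for 7 members (Zfp36, Cnot2, Cnot7, Lsm6, Exosc2, Exosc9 and Exosc10, 15.6%), where this held for 10.4% of all genes tested. The first share was below the background and the second above it, and both are given as a description. The summed level of all 45 genes was 2212 and 2543 CPM in the libraries labelled KO and 2491, 2466 and 2729 CPM in controls 1 to 3, so it overlapped between the groups.

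**Figure D1:**
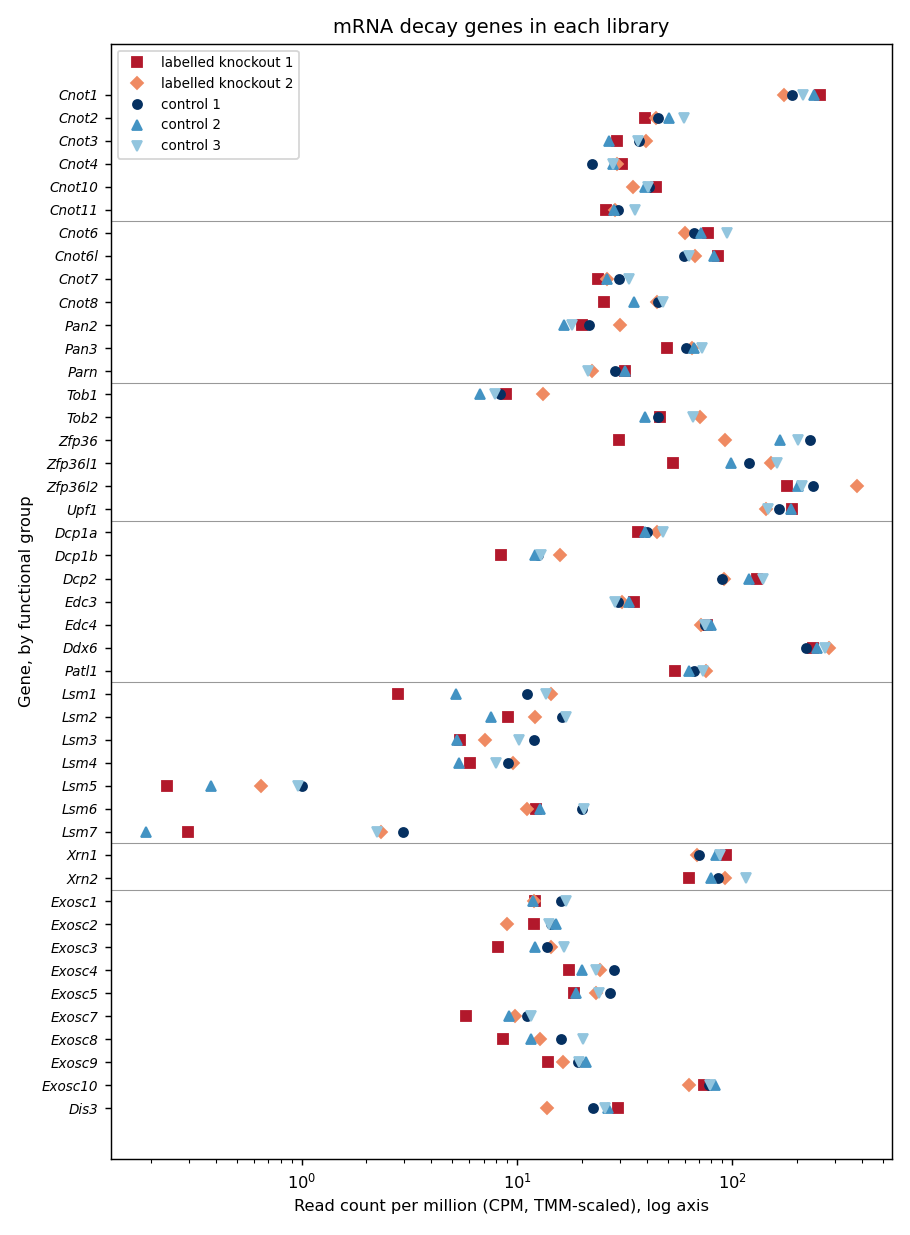
Level of each of the 45 genes in each of the 5 libraries, in CPM scaled by TMM factors on a log axis, with genes in rows by functional group. Most genes have their 5 points close together, whereas Zfp36 (29.6 to 231 CPM), Lsm1 (2.80 to 14.4 CPM) and Lsm7 (0.190 to 2.95 CPM) are spread widely.

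**Figure D2:**
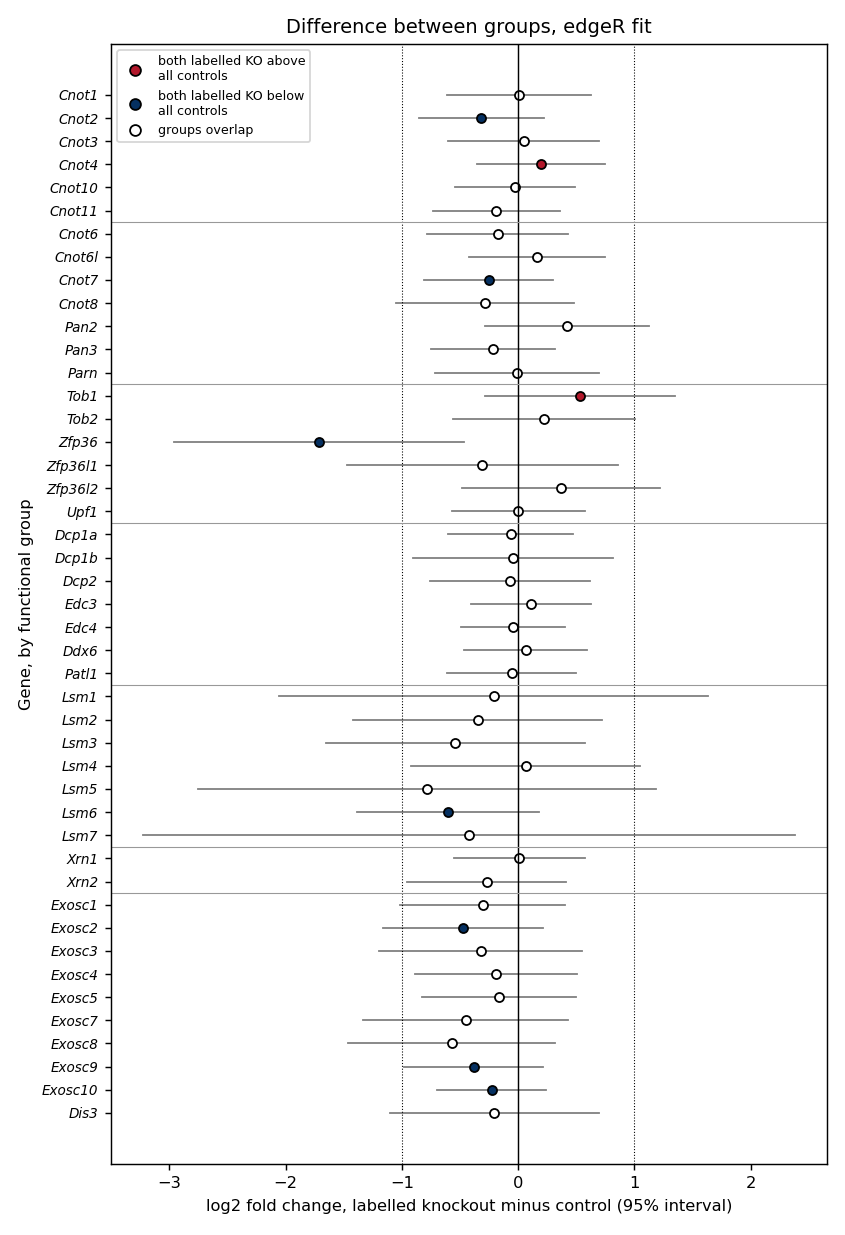
Log2 fold change of each gene with its 95% interval from the edgeR fit, n = 2 libraries labelled KO and 3 controls; filled points mark genes whose groups do not overlap and dotted lines a 2-fold change. The interval of Zfp36 alone leaves out zero.

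The TTP family opens the account by role, since its 3 proteins choose which mRNAs are degraded. Each of the 3 mRNAs also carries, in its own 3′ end, the sequence that TTP binds best, a nonamer spelled TTATTTATT in DNA letters. The sites are shown with the nonamer in capitals, 5′ to 3′ on the mRNA strand (minus strand of GRCm38, GENCODE M21).
Zfp36, chr7:28376952-28376977: tgacgactTTATTTATTgtattaaga
Zfp36l1, chr12:80108168-80108193: ctgttggaTTATTTATTttagaaatt
Zfp36l2, chr17:84184915-84184940: tatttaacTTATTTATTatcttgtga
Searched on the sense strand of the 3′ untranslated region, 1 nonamer was found in each of the 3 genes and 1 in Edc3, and none in the other 41 members. That is 8.89% of the 45 members, against 7.51% of the 12281 tested genes with such a region. A match is a description of the letters and not a measured binding site.

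Zfp36 was the member that differed most between the groups. Its level was 29.6 and 92.2 CPM in KO1 and KO2, and 231, 166 and 202 CPM in controls 1 to 3. Both libraries labelled KO lay below the lowest control, and they differed 3.11-fold from each other, more than the 1.39-fold range of the controls. Averaged, this gives 60.9 ± 44.3 CPM (SD, n = 2) and 200 ± 32.2 CPM (SD, n = 3), a ratio of means of 3.28-fold. The log2 fold change was -1.71 (SE 0.506, 95% interval -2.96 to -0.46) with an unadjusted p of 0.0156 and an adjusted p of 0.556 in edgeR, so the gene did not pass the test over all genes. The DESeq2 adjusted p was 0.0650. The size rested on single libraries: the log2 fold change was -1.14 without the library labelled KO1 and -2.75 without the library labelled KO2, with edgeR adjusted p of 0.529 and 0.147. Each of these fits leaves 1 library labelled KO, which is assumed to vary like the controls. Zfp36 (ENSMUSG00000044786.6) spans 28376784 to 28380253 of chromosome 7 on the minus strand of GRCm38. Gm44710, an antisense gene, shares exonic bases with it, and no label or processing note used here states a strand setting for the counting.

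In the 2 paralogs KO1 and KO2 lay apart, and the direction depended on which of them was taken. Zfp36l1, which like its relatives recruits CCR4-NOT to AU-rich mRNAs, stood at 53.0 and 151 CPM in KO1 and KO2 and 120, 98.3 and 161 CPM in the controls. Only the first of the 2 libraries lay below the controls, and the log2 fold change of -0.31 (SE 0.473, edgeR adjusted p = 0.940) became 0.23 without the library labelled KO1 and -1.25 without the library labelled KO2. Zfp36l2, the third member of the family, was at 179 and 379 CPM versus 237, 201 and 210 CPM. It stood above the controls in the second library and below them in the first, with a log2 fold change of 0.37 (SE 0.345, edgeR adjusted p = 0.924) that was 0.78 without the library labelled KO1 and -0.28 without the library labelled KO2. In all 3 genes the library labelled KO1 was the lowest of the 5.

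Relative to its paralogs, Zfp36 was low in both libraries labelled KO. Per kilobase of transcript, Zfp36 made up 13.4% and 17.3% of the summed family level in KO1 and KO2 and 43.5%, 39.9% and 39.0% in the controls. Averages were 15.4% ± 2.74 (SD, n = 2) and 40.8% ± 2.38 (SD, n = 3), so the gap between groups was larger than the spread within either. The shares add up to the whole, so the higher share of Zfp36l2 (64.1% and 56.3% against 32.0% to 38.2%) follows in part from the lower share of Zfp36: in KO1 Zfp36l2 had its lowest CPM and its highest share. The shares are a description, computed after the values of the 3 genes were seen, since 2 against 3 libraries cannot reach an exact two-sided permutation p below 0.2. GENCODE and RefSeq place the start of Zfp36 1025 bases apart. With its transcript counted from the RefSeq start, an alternative chosen after seeing the data, its share was 19.7% and 24.9% against 50.3% to 54.9%.

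**Figure D3:**
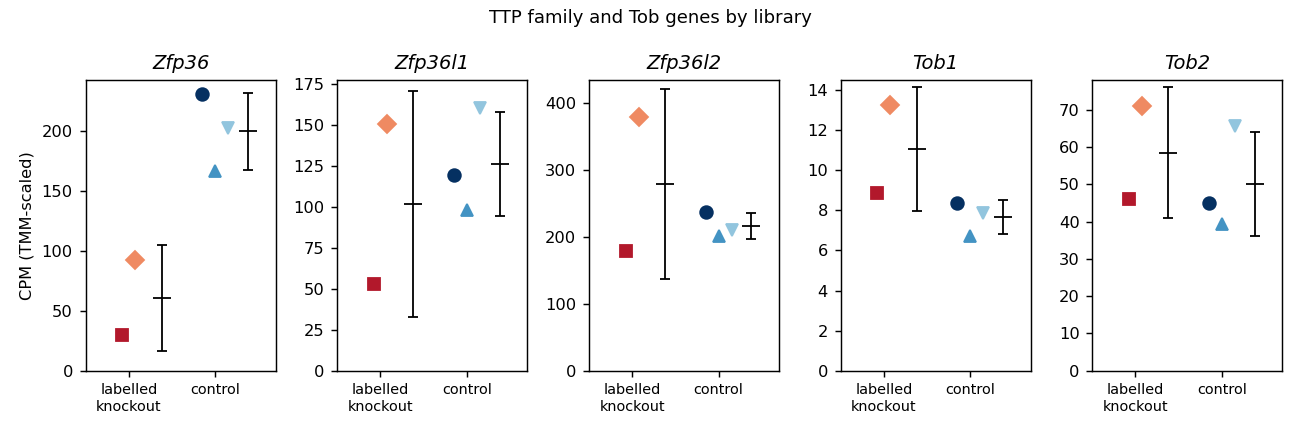
CPM of Zfp36, Zfp36l1, Zfp36l2, Tob1 and Tob2 in each library, with the group mean and SD as bars (n = 2 and 3); squares and diamonds are the libraries labelled KO1 and KO2, and circles, upward and downward triangles are controls 1 to 3. Zfp36 is below all controls in both libraries labelled KO, and Tob1 is above all of them.

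Zfp36 is itself an early-response gene, so the windows of 300 bases around the RefSeq starts of the members were searched on both strands for motifs of factors that act on such genes. Windows were found for 36 of the 45 members and 9872 of the genes tested. Zfp36l2 had no window and was not searched. The CArG box, the kind of sequence that serum response factor (SRF) binds, was in 1 member, Zfp36, and in 1.47% of all these genes. The EGR-type site GCGGGGGCG was in 3 members (Zfp36, Edc3 and Exosc8) and 6.43% of all genes, the AP-1-type site TGANTCA in 3 (Pan2, Zfp36l1 and Patl1) and 6.27%, and TGACGTCA in 1 (Lsm2) and 3.64%. GCGTGGGCG was in none of the members' windows and 1.48% of all, and GGGCGG, which can overlap the other motifs, in 28 and 68.7%. Of the immediate early genes listed below, 12 had a window. Among these the CArG box was in 1 (Egr2), GCGGGGGCG in 4, TGACGTCA in 2, GGGCGG in 11, and TGANTCA and GCGTGGGCG in none. The CArG box was thus absent from most windows of early-response genes as well. For Zfp36 the window lies within the first exon of the longer GENCODE transcript, whose start is 1025 bases further upstream, so it is a promoter by the RefSeq annotation alone. A match or its lack says nothing about the factor.

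Levels of mRNAs listed as bound by the TTP family, and of early-response genes that Zfp36 is usually induced with, were set beside Zfp36. The lists were chosen with earlier results of these data known, so the shares below are a description. Of 18 AU-rich mRNAs listed as TTP-family targets, 15 were tested, and 14 were lower and 1 higher by log2 fold change, with a median of -1.26. None was called by edgeR. At an unadjusted p under 0.05 there were 4, all lower (26.7%, where 6.68% of all genes tested passed in either direction), and DESeq2 called 4 lower, where it called 1.68% of all genes. The 4 with the smallest p were Fos, a subunit of AP-1, Ptgs2, the inducible cyclooxygenase, Dusp1, a MAP kinase phosphatase, and Vegfa, the angiogenic growth factor, with log2 fold changes of -2.33, -2.42, -3.04 and -2.22. The nonamer was in 7 of these 15 genes (46.7%), against 7.51% of all tested genes with a 3′ untranslated region. The list was chosen for AU-rich mRNAs, so a high share follows from that choice and is no result of these data. Of 15 immediate early genes 14 were tested, 13 lower and 1 higher, with a median of -0.84, and none called by edgeR. At an unadjusted p under 0.05 there were 5, all lower (35.7%, beside the same 6.68% of all genes), and 3 were called lower by DESeq2, beside 1.68%. Egr1 (log2 fold change -2.02), the factor that binds the EGR-type site, and Nr4a1 (-2.18), an orphan nuclear receptor, were lower with Fos and Dusp1. The 2 lists share Fos, Dusp1 and Ier3. The TTP-family targets summed to 220.3 and 637 CPM in KO1 and KO2 against 624 to 1311 CPM in the controls, so those groups overlapped. In CPM summed over the 15 immediate early genes, the libraries labelled KO stood at 379 and 794 against 946 to 1332 in the controls. KO1 was below KO2, as for Zfp36, but this order also held for 6435 of the 12543 genes tested. What links these levels to that of Zfp36 was not tested.

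Tob1 and Tob2 encode antiproliferative adaptors that bind the Cnot7 and Cnot8 nucleases and bring them to mRNAs. Tob1 stood at 8.86 and 13.2 CPM in KO1 and KO2 and 8.36, 6.72 and 7.88 CPM in controls 1 to 3. It was above every control in both, by a small margin in the first, with a log2 fold change of 0.53 (SE 0.331) and an edgeR adjusted p of 0.878. Without the library labelled KO2 the log2 fold change was 0.21, and without the library labelled KO1 it was 0.76. Tob2 overlapped between groups at 46.1 and 71.0 CPM versus 39.4 to 65.8 CPM. Upf1, the helicase of nonsense-mediated decay, showed a log2 fold change of 0.00 (SE 0.232) and the same mean in both groups, 167 ± 33.4 CPM (SD, n = 2) and 166 ± 20.2 CPM (SD, n = 3). The group of recruiters thus held both the most displaced member, Zfp36, and one of the least displaced, Upf1.

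Genes of the CCR4-NOT scaffold and its modules had log2 fold changes from -0.32 to 0.20. Cnot1, the scaffold that Ythdf2 contacts, stood at 255 and 175 CPM in KO1 and KO2 and 190, 239 and 213 CPM in the controls. KO1 was the highest and KO2 the lowest of the 5, on either side of the controls, with a log2 fold change of 0.01 (SE 0.252, 95% interval -0.61 to 0.63). Cnot2, which with Cnot3 forms the NOT module, was lower in both at 39.3 and 44.3 CPM versus 45.4, 50.8 and 59.8 CPM, and the gap of 1.1 CPM between the second of these and control 1 was small beside the range of the controls. Its log2 fold change was -0.32 (SE 0.217) with an edgeR adjusted p of 0.897. Cnot4, a ubiquitin ligase that associates with the complex, was at 30.7 and 29.1 CPM versus 22.4, 27.9 and 28.0 CPM, just above the controls, with a log2 fold change of 0.20 (SE 0.224, edgeR adjusted p = 0.926). Cnot3, Cnot10 and Cnot11 had log2 fold changes of 0.05, -0.02 and -0.19 and overlapped between groups. The median over the 6 genes was -0.01.

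The nucleases that remove the tail had log2 fold changes from -0.28 to 0.42. CCR4-NOT carries 1 exonuclease of the Cnot6 or Cnot6l kind and 1 of the Cnot7 or Cnot8 kind, and which paralog is present can differ between cells. Cnot6 was at 77.0 and 60.1 CPM versus 66.4, 71.7 and 94.5 CPM, and Cnot6l at 85.4 and 67.3 CPM versus 59.8, 82.0 and 62.7 CPM. Both overlapped, with log2 fold changes of -0.18 (SE 0.247) and 0.16 (SE 0.238). Cnot7 was lower in both at 23.7 and 26.21 CPM versus 29.7, 26.23 and 33.3 CPM, but by less than 0.03 CPM from control 2 (log2 fold change -0.25, SE 0.226, edgeR adjusted p = 0.924). Cnot8 overlapped at 25.5 and 44.6 CPM versus 35.1 to 47.9 CPM. Exons of Cnot7 overlap those of Zdhhc2 on the other strand, and reads shared between close paralogs can be lost or split in counting.

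Pan2 and Pan3 encode the enzyme and the adaptor of the complex that trims the tail first, and they went in opposite directions without passing the test. Pan2 was at 19.99 and 30.2 CPM versus 21.7, 16.5 and 18.0 CPM, highest in the library labelled KO2 while the other lay within the controls, with a log2 fold change of 0.42 (SE 0.286, edgeR adjusted p = 0.893). Pan3 was at 49.5 and 65.0 CPM versus 61.2 to 72.0 CPM, and its log2 fold change was -0.22 (SE 0.216). Parn, a deadenylase of small RNAs and stored mRNAs, had a log2 fold change of -0.01 (SE 0.287). Over the 7 deadenylase genes the median was -0.18.

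Decapping genes had log2 fold changes close to zero, from -0.07 to 0.11. Ddx6, the helicase that joins CCR4-NOT to the decapping factors, had the highest mean CPM of all 45 members. It was at 236 and 281 CPM versus 221 to 270 CPM, with KO1 inside the control range and KO2 just above it, and its log2 fold change was 0.07 (SE 0.215, 95% interval -0.46 to 0.60). Dcp2, the enzyme that cuts the cap, was at 130 and 91.2 CPM versus 89.4, 119 and 140 CPM and overlapped fully, with a log2 fold change of -0.07 (SE 0.280). Edc4, which scaffolds Dcp1 and Dcp2, was the steadiest gene of all 45, between 71.4 and 80.0 CPM in the 5 libraries, a range of 1.12-fold. Edc3, Dcp1a and Patl1 ranged over 1.22-fold, 1.32-fold and 1.40-fold. Dcp1b, the less abundant of the 2 activator subunits, was the exception at 8.45 and 15.8 CPM versus 12.2 to 12.9 CPM: the libraries labelled KO stood on either side of controls that hardly differed. After a correction for transcript length, described below, the median of this group moved from -0.05 to -0.15 with all 7 genes negative, and it was 0.05 without the library labelled KO1.

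The LSM ring differed more between libraries of the same group than between groups. Lsm1 to Lsm7 form the ring that holds the shortened tail for decapping, and Lsm2 to Lsm7 also serve, with Lsm8, in the nuclear ring on U6 RNA. Summed over the 7 genes, the level was 36.1 and 57.5 CPM in the libraries labelled KO and 72.5, 36.7 and 72.5 CPM in controls 1 to 3. Control 2 was as low as the library labelled KO1, well under the other controls. Lsm1, the subunit particular to the cytoplasmic ring, stood at 2.80 and 14.4 CPM versus 11.2, 5.196 and 13.7 CPM. It was lowest in the library labelled KO1, next lowest in control 2 and highest in the library labelled KO2, a range of 5.16-fold. Its log2 fold change of -0.21 had an SE of 0.749, so the group comparison says little for this gene.

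Lsm7 and Lsm5 were the least abundant members. Lsm7 had 5 and 43 reads in the libraries labelled KO and 47, 3 and 30 reads in the controls, a 15.5-fold range of CPM between control 1 and control 2 alone. Lsm5 had 4 and 12 reads against 16, 6 and 13 reads. Both were again low in the library labelled KO1 and in control 2, at counts where counting error is large. Lsm2, at 9.10 and 12.2 CPM versus 16.2, 7.54 and 16.9 CPM, and Lsm3, at 5.41 and 7.13 CPM versus 11.9, 5.26 and 10.3 CPM, had the same 2 libraries lowest, here with control 2 below KO1. Lsm6 was the 1 subunit whose groups did not overlap, at 12.2 and 11.2 CPM versus 20.1, 12.7 and 20.4 CPM, but control 2 was within 0.6 CPM of the first of these (log2 fold change -0.60, SE 0.319, edgeR adjusted p = 0.868). In 6 of the 7 LSM genes the 2 lowest libraries were the library labelled KO1 and control 2. That held for 20 of all 45 members and for 2819 of the 12543 genes tested. The median log2 fold change of the LSM genes was -0.42, and it ran from -0.80 without control 2 to -0.16 without control 1, where 6 of the 7 were tested.

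**Figure D4:**
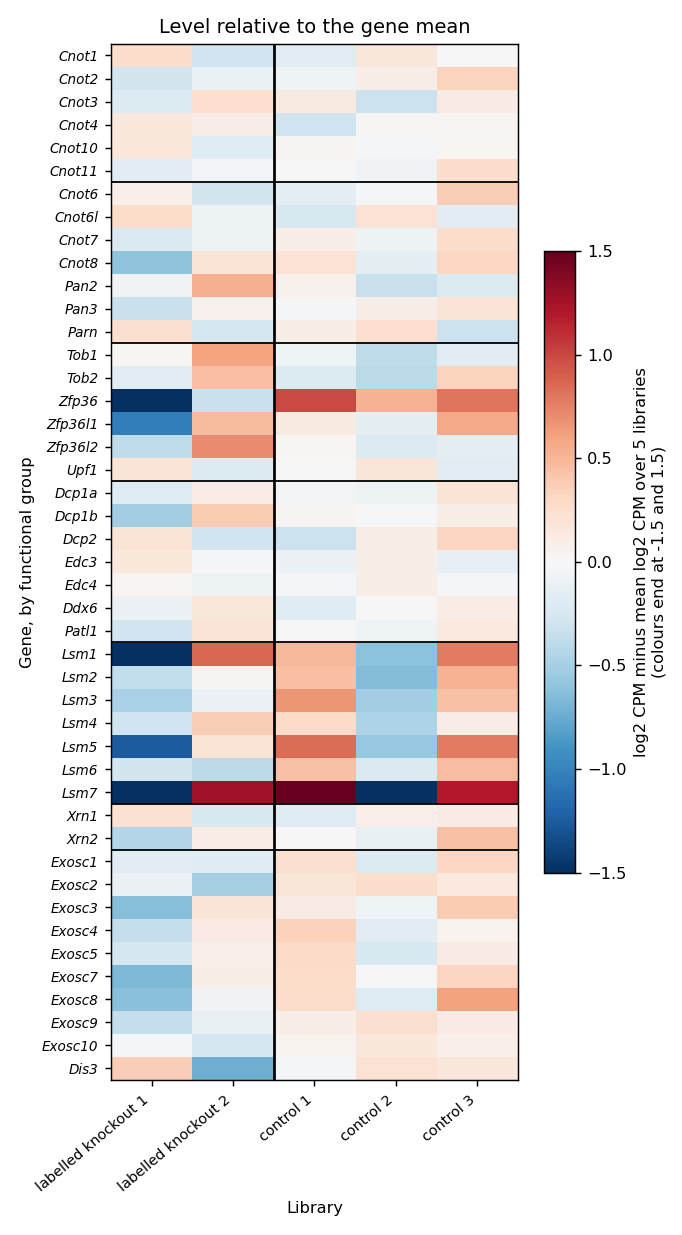
Log2 CPM of each gene in each library after subtracting the mean of that gene across all 5, with red above and blue below the mean and colours ending at -1.5 and 1.5. The LSM rows are blue in the library labelled KO1 and in control 2 and red in controls 1 and 3, whereas the Zfp36 row is blue in both libraries labelled KO and red in the 3 controls.

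Transcript length moved with these differences between libraries. Between the libraries labelled KO1 and KO2, which carry the same label, the log2 ratio of CPM was higher for longer transcripts across members (Spearman rho 0.49, n = 45 genes) and across all genes tested (0.47, n = 12510). Between controls 2 and 1 the values were 0.70 over the members and 0.49 over all genes. Between controls 3 and 1 they were 0.41 over the members and -0.06 over all genes, so this pair showed no such trend over the table. Genes are not independent replicates, the points share their libraries and depth, and these are descriptions. Among genes with transcripts under 1000 bases, the median log2 ratio of KO1 over KO2 was -0.66 in 5 members, all of the LSM ring, and -1.04 in all 720 such genes. Among those over 4000 bases it was 0.15 in 14 members and 0.43 in all 4099 such genes. The median transcript of the LSM genes was 873 bases, that of the exosome genes 1649 and that of the decapping genes 5576, so these groups lie at different places on this trend.

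When each library was corrected for its trend on transcript length, the range over the 5 libraries narrowed in 6 of 7 LSM and 6 of 10 exosome genes and widened in all 7 decapping genes and both XRN genes. Over all 45 members it narrowed in 19 and widened in 26, among them Ddx6 (1.27-fold to 1.93-fold) and Edc4 (1.12-fold to 1.41-fold). The range over the 5 libraries went from 2.25-fold to 1.5-fold for Lsm2, from 1.79-fold to 1.34-fold for Lsm4 and from 4.23-fold to 1.84-fold for Lsm5. It went from 15.5-fold to 8.64-fold for Lsm7, from 5.16-fold to 5.01-fold for Lsm1 and from 1.83-fold to 2.12-fold for Lsm6. The annotated transcripts of Lsm1 and Lsm6, at 2663 and 3792 bases, are not short. Lsm6 was still lower in both libraries labelled KO (log2 fold change -0.72, edgeR adjusted p = 0.740), and so was Zfp36 (log2 fold change -1.76, adjusted p = 0.434). No member was called after the correction.

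**Figure D5:**
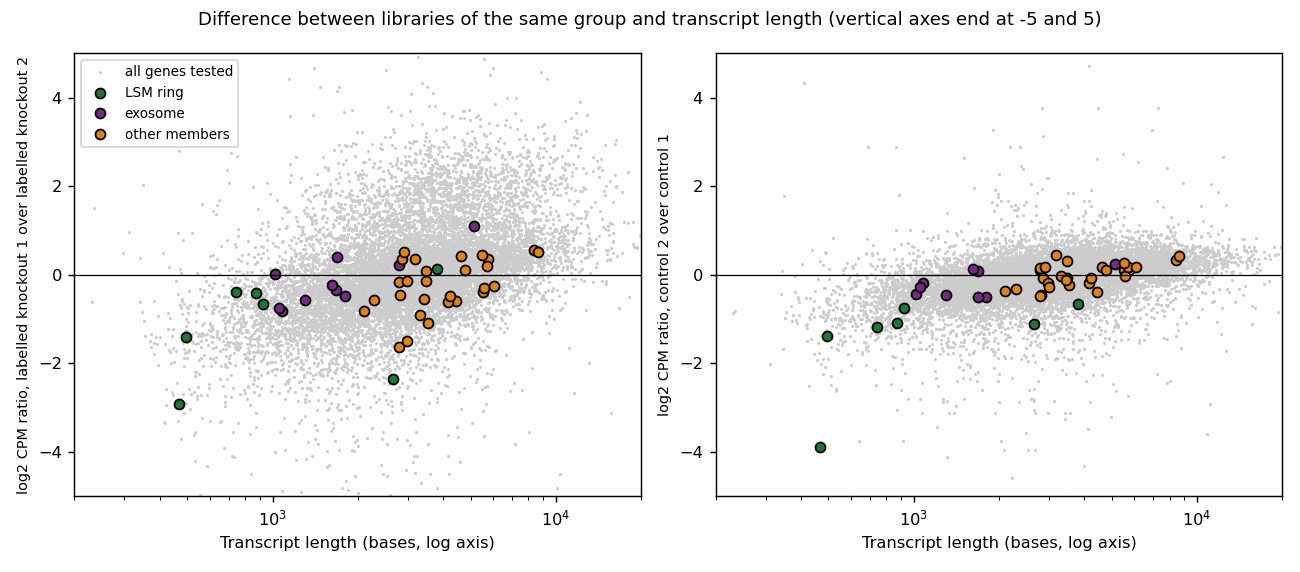
Log2 ratio of CPM between 2 libraries of the same group against annotated transcript length (log axis), for KO1 over KO2 (left) and control 2 over 1 (right), with 0.01 added to each CPM; grey points are all 12510 genes tested with a length, of which 75 and 13 lie outside the vertical axes. Of the 7 LSM genes (green), 5 are under 1000 bases, and most lie below zero in both panels, with Lsm7 lowest in each.

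The 2 exonuclease genes of the XRN family did not differ beyond the spread of their libraries. Xrn1, the cytoplasmic enzyme, was at 93.7 and 68.6 CPM versus 70.3, 84.3 and 87.2 CPM, and its log2 fold change was 0.01 (SE 0.230), with KO1 above and KO2 below all controls. Xrn2, its nuclear relative that also ends transcription, was at 62.9 and 92.4 CPM versus 85.8, 79.2 and 116 CPM, and its log2 fold change was -0.27 (SE 0.278). Both values for Xrn2 were within or below the control range, and the groups overlapped.

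Exosome genes were slightly lower in the libraries labelled KO, all in the same direction and none past the test. All 10 of 10 genes had a negative log2 fold change, where 48.9% of all genes tested did. It ran from -0.57 (Exosc8) to -0.16 (Exosc5), with a median of -0.31. The lowest edgeR adjusted p among these genes was 0.876, and 0 of them had an unadjusted p under 0.05 in edgeR, DESeq2 or limma-voom. In summed CPM the 10 genes stood at 200 and 199 in the libraries labelled KO and 246, 230 and 250 in the controls, so the groups did not overlap and differed by less than 1.5-fold. Exosc10, a nuclear exonuclease of the complex and its most abundant member here, was at 73.9 and 63.1 CPM versus 77.9, 83.5 and 78.9 CPM. Both libraries were below the controls (log2 fold change -0.23, SE 0.190). Exosc2, a cap subunit, was at 11.96 and 9.03 CPM versus 14.4, 15.2 and 14.0 CPM, and Exosc9, a subunit of the ring, at 13.9 and 16.4 CPM versus 19.1, 20.9 and 19.4 CPM. In these 3 genes the controls lay within 1.1-fold of each other, and both libraries labelled KO were outside that range, with log2 fold changes of -0.47 (SE 0.281) for Exosc2 and -0.38 (SE 0.243) for Exosc9. Exons of Exosc9 overlap Ccna2, a cyclin gene of dividing cells on the other strand, and those of Exosc2 overlap Gm13427 on the other strand. Exosc3, Exosc4, Exosc5, Exosc8 and Dis3 also share exonic bases with a gene on the other strand.

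Among the rest of the exosome, single libraries set the value. Dis3, the catalytic subunit, was at 29.5 and 13.7 CPM versus 22.5, 26.5 and 25.6 CPM. The 2 libraries labelled KO lay on opposite sides of the controls, and the fold change on the log2 scale went from -0.20 to -0.89 without the library labelled KO1 and to 0.25 without the library labelled KO2. Exosc3, Exosc4, Exosc5, Exosc7 and Exosc8 were each lowest in the library labelled KO1, while the other library labelled KO overlapped the controls in all 5. Exosc1 was lower in both than controls 1 and 3 but not control 2 (12.1 and 11.997 CPM versus 16.0, 11.8 and 16.9 CPM). The direction held in 9 of 10 genes without the library labelled KO1 and in 9 of 10 without the library labelled KO2, with medians of -0.32 and -0.40. After the correction for transcript length it held in 10 of 10, where 55.2% of all genes tested were negative. The median was then -0.28, against -0.05 over all genes tested. Before the correction both libraries labelled KO lay below every control in 30% of the 10 genes, against 10.4% of all genes tested. After it Exosc2 and Exosc9 overlapped between groups, and Exosc10, Exosc3, Exosc7 and Exosc8 did not. The share of all genes after the correction is not given here. The length trend, in which all genes of 1000 to 2000 bases had a median log2 fold change of -0.12, moved with this group as well.

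In the wider set of mRNA decay genes, negative log2 fold changes also outnumbered positive ones, but less strongly than among the 45 members. Of 72 further genes, from the readers Ythdf1, Ythdf2 and Ythdf3 to nonsense-mediated decay, poly(A)-binding proteins, Argonautes and other AU-rich binding proteins, 68 were tested and none was called by edgeR. Exosc6, the exosome subunit outside the 45, and Pde12 were listed at 0 in every library. At an unadjusted p under 0.05 there were 2 higher and 2 lower (5.88%), and the median log2 fold change was -0.07, with 28 positive and 40 negative. The 4 were Ythdf2 (0.83), Helz, a helicase that binds CCR4-NOT (0.64), Noct, a phosphatase related to the Cnot6 nucleases (-1.82), and Hnrnpd, which encodes the AU-rich binding protein AUF1 (-0.80). Hnrnpd was at 50.9 and 75.0 CPM versus 104, 110 and 115 CPM, so both libraries labelled KO lay below the controls (SE 0.238, edgeR adjusted p = 0.556). Noct was at 7.08 and 4.22 CPM versus 16.4, 13.6 and 30.0 CPM and was called lower by DESeq2 (adjusted p = 0.0349) and not by edgeR (adjusted p = 0.482). Of these 4 genes, Noct and Hnrnpd were thus lower in both libraries labelled KO, as was Zfp36 among the 45 members. Ythdf2 and Helz had positive log2 fold changes. None of these genes passed the edgeR test over all genes.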

How the data were processed

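Gene-level read counts were deposited by the authors as whole numbers per gene symbol, with no normalization visible in the values. Per the submitters' processing notes, the tools were FastQC, STAR and HTSeq, and the build was mm10; versions, annotation and strand setting are not stated there. The members and lists were chosen with earlier results of these data known. The counts were tested with edgeR 4.0.16 (R 4.3.3; quasi-likelihood F test, two-sided, filterByExpr, TMM, robust), adjusted by Benjamini-Hochberg over 12543 genes (threshold 0.05, common biological coefficient of variation 0.408). CPM values use TMM-scaled library sizes; SE is the log2 fold change over the root of F. Members given in full had an unadjusted p under 0.05, groups that did not overlap or a high mean in their functional group, or belonged to the TTP family; values of other members were picked after they were seen. Alternatives were DESeq2 1.42.0, limma-voom 3.58.1, other scalings and filters, a replicate block, each library left out and a loess correction (span 0.3) on transcript length. GENCODE M21 (GRCm38) matched 99.7% of symbols. RefSeq (GRCm38.p6) gave promoters. On simulated counts the fit recovered the median of the fold changes put in, but missed most 2-fold changes and many larger ones. It also called more unchanged genes than its threshold allows. A gene that was not called can therefore still differ between the groups.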

Additional observations from a re-analysis of the deposited data

How the results depend on the processing

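No member was called higher or lower under any of the 13 alternatives (count 0 in each direction), and the median log2 fold change of the members stayed negative, from -0.30 without the library labelled KO2 to -0.08 without control 3. Members at an unadjusted p under 0.05 numbered 1 to 3 with a library left out, and the 838 genes of the whole table at that level 407 to 2183. DESeq2 called 232 genes of the whole table and the replicate block 4, none of them a member. Members whose groups do not overlap ranged from 3 to 11 higher and from 7 to 23 lower with a library left out, where fewer libraries separate more easily. With library totals only, 1 member was above all controls and 7 were below. After the correction for transcript length 1 was above and 10 were below. The shares of all genes under these settings are not given here, so these counts are not set against a background. Zfp36 kept its direction in all 13, from -2.75 to -1.14. Without the library labelled KO1, Zfp36l1 reversed to 0.23 and Zfp36l2 was 0.78; without the library labelled KO2, Zfp36l2 reversed to -0.28 and Zfp36l1 was -1.25; the cause was not tested. The numbers shared by libraries are only names. For the third control, the replicate number in the title differs from its library number, and the library number was used. With these numbers as a replicate block in edgeR the members' median was -0.09, with Zfp36 at -1.90. The count of members at an unadjusted p under 0.05 was then 1. Deviations of same-numbered libraries correlated at 0.15 and -0.56. Depth limits Lsm5 and Lsm7, with 3 to 47 reads per library.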
